A study of Mus musculus with 6 samples.

Results

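The plasminogen system was followed in obstructed mouse kidneys through 8 genes, of which 7 were among the 19598 genes tested on the arrays: Plat (tissue-type plasminogen activator), Plau (urokinase), Plaur (the urokinase receptor), Plg (plasminogen), Serpine2, Serpinf2, Serpinb2 (3 serpin inhibitors) and F3 (tissue factor). They were selected by gene name in the scanner files and were measured by 15 of the 41174 probes on the array. The tested kidneys were left kidneys whose ureter had been ligated in vivo (3 arrays), and the controls were the right kidneys of the same animals, which were not ligated (3 arrays). The animals were 3 CD-1 mice, an outbred stock, numbered 495, 485 and 512. The labels give a kidney as the tissue and primary cells as the cell type, and they give neither the age of the mice nor the time since ligation. The opposite kidney of an obstructed animal is a control from an operated mouse and not from an unoperated one.

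Plasmin is the protease that dissolves fibrin and can also activate other proteases and growth factors. It is cut from its inactive precursor plasminogen by tissue-type or urokinase-type activator, and cell-surface receptors such as the urokinase receptor concentrate this reaction at the cell membrane. Serpins restrain it: Serpine2 and Serpinb2, for example, inhibit the activators, and Serpinf2, made mainly by liver and in the mouse also by kidney, inhibits plasmin itself. Tissue factor acts at the other end of fibrin turnover, as the membrane protein that starts coagulation. In the kidney, urokinase is known as a product of the tubular epithelium.

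Of the 7 members that could be tested, Serpine2 and Plat were called higher in ligated kidneys and Serpinf2 was called lower, while Plau, Plaur, Plg and F3 were not called. A call is an adjusted p (Benjamini-Hochberg over all genes tested) under 0.05 in limma's fit with the mouse as a block. The background was high: 30.7% of all genes were called, 16.0% of all genes higher and 14.7% lower. Against that background, 2 higher and 1 lower calls among 7 members set no count of theirs apart from the rest of the genes. Probe by probe, 30.2% of the probes kept were called. The ligated and contralateral values of 3 of the 7 members did not overlap, against 53.5% of all genes. The median log2 change was 0.33 over the 7 members and -0.01 over all genes. With 3 pairs the fit had 2 residual degrees of freedom, and the smallest adjusted p over all genes was 0.0221. The p-values set the mean change against the spread of the within-mouse differences of these 3 animals. In limma that spread is moderated with the variances of all genes, here with 2.06 prior degrees of freedom. Leaving out mouse 495 or mouse 485 ended every call: 0 genes were called by limma, with 4979 and 5019 genes at an unadjusted p under 0.05, and the adjusted p was 0.118 and 0.144 for both Serpine2 and Serpinf2 and 0.175 and 0.174 for Plat. Without mouse 512 these members kept their calls, with limma adjusted p-values of 0.0062 for Serpine2, 0.0035 for Serpinf2 and 0.0070 for Plat.

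The probes are shown because each value below is the brightness of a single 60-base oligonucleotide. Plat, Plau, Plaur and Plg, and also F3 and Serpinb2, have several probes at different places. Positions are those the array design gives for build mm8; exon and UTR positions were not analysed here. The Serpine2 probe runs on the minus strand over chr1:79675925-79678542, which is longer than the probe, so its bases come from separate blocks of the genome. The Serpinf2 probe lies at chr11:75248172-75248231 on the minus strand. The Plat probes lie at chr8:24248165-24248225 and, for the dimmest, at chr8:24241374-24241433, which is 6170 bases before the next Plat probe. The Plau probe lies at chr14:19631572-19631631 and the Plaur probe at chr7:24184310-24184369. The F3 probes lie at chr3:121726440-121726499 and chr3:121726400-121726459. The F3 pair overlaps by 20 bases, of which 2 differ between the printed probes. These are G49T and C55G, read from A_52_P683413 to A_51_P236846 with positions counted from 1 at the 5′ end of A_52_P683413, and capitals mark them. All sequences are written 5′ to 3′.
Serpine2, A_51_P268094: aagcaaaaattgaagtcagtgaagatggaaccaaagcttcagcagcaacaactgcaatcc
Serpinf2, A_51_P174176: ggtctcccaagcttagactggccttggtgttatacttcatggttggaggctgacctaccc
Plat, A_51_P301566: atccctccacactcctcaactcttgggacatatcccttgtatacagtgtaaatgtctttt
Plat, A_52_P405772: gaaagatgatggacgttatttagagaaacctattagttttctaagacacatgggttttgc
Plau, A_52_P302433: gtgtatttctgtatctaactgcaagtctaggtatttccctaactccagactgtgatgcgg
Plaur, A_52_P681310: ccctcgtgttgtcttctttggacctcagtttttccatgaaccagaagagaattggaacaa
F3, A_51_P236846: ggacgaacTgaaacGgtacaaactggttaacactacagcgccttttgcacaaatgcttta
F3, A_52_P683413: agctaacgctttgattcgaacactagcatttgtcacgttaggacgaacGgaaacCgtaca

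Levels below are scaled signals, meaning the background-corrected intensity of a probe divided by the 75th percentile of its array. That percentile was between 1068.4 and 1431.8 intensity units on ligated arrays, against 670.7 to 1105.7 on contralateral arrays, and no spot was saturated. Values are always given in the order of mice 495, 485 and 512. Levels of different probes are not on a common scale, so no member is set against another by level. The sums of marker levels below add unlike probes and mostly follow the brightest. They are read only between arrays. The labelled tissue was set against kidney markers: all 5 proximal tubule, 5 collecting duct and 5 podocyte markers were well above background on every array of at least 1 group. Most probes passed that filter, 29093 of 41174, so passing it says little about the tissue. The contralateral kidney of mouse 512 stood apart from the other 2 contralateral kidneys. The summed level of the 5 macrophage markers was 191, 198.6 and 216.1 in ligated kidneys, against 16.9, 16.1 and 83.8 in contralateral kidneys. The summed level of the 5 proximal tubule markers was 59.4, 105.1 and 72.6 in ligated kidneys, against 684.4, 781.5 and 137.4 in contralateral kidneys. The contralateral kidney of mouse 512 thus lay nearer to the ligated kidneys than the other 2 contralateral kidneys did, on both sums. Lyz2 alone gave 155.3, 158.9 and 177.9 of the macrophage sums in ligated kidneys. In the contralateral kidney of mouse 512, Cd14 (41.8) and Lyz2 (38.1) made up most of the macrophage sum. Adgre1 and Cd68 were likewise highest in it among contralateral kidneys, while Csf1r was lowest, with 1.88 against 2.26 and 2.51. Mouse 512 was also alone on its slide, mice 495 and 485 sharing the other, so the slide and the animal cannot be told apart for it. In this RNA, fewer cells of a type and less RNA per cell cannot be told apart either.

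**Figure D1:**
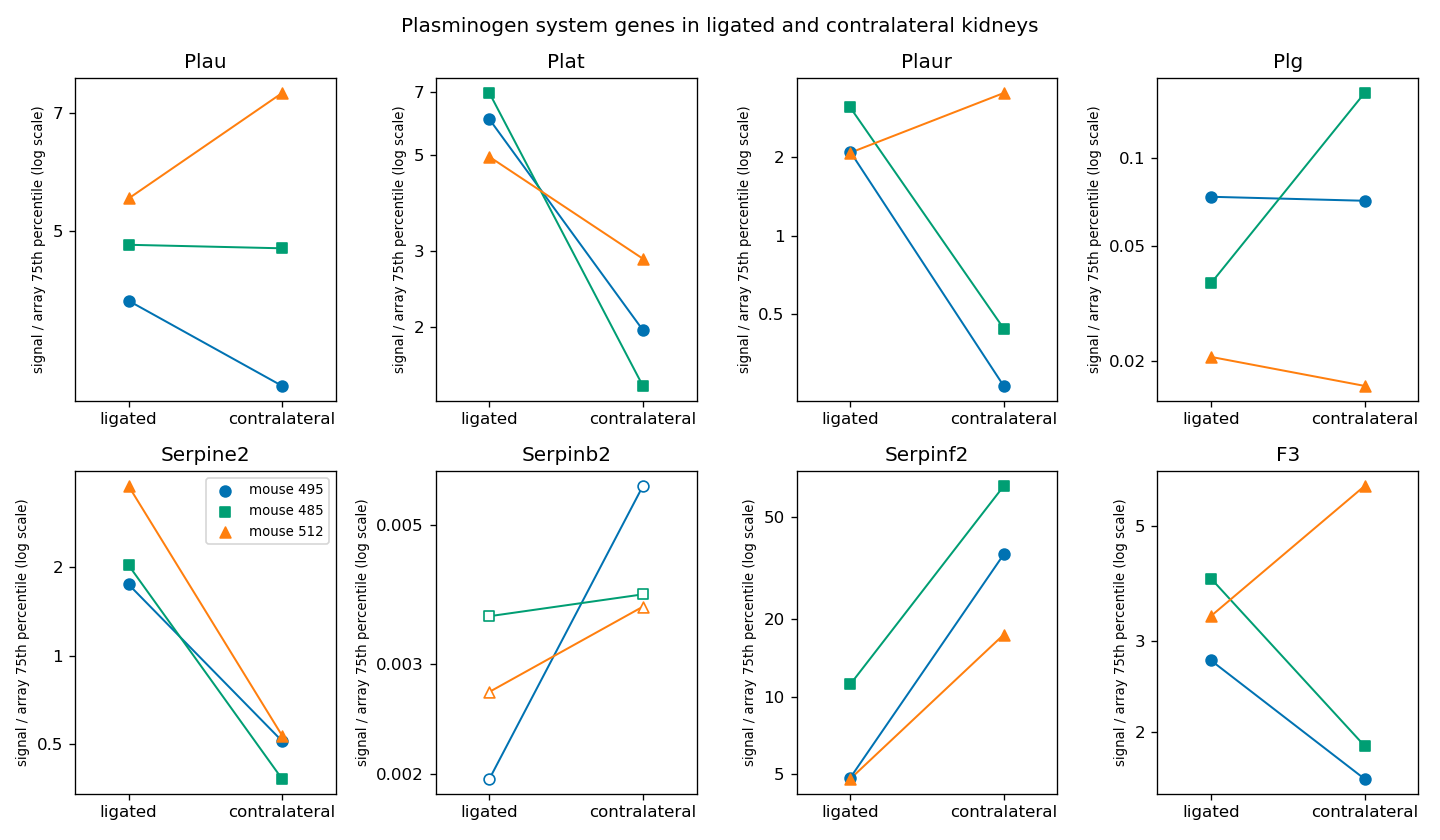
Scaled signal (log axis) of 1 probe for each of the 8 genes, with ligated kidneys on the left, contralateral kidneys on the right and a line joining the kidneys of a mouse; open symbols are not well above background. Plat, Serpine2 and Serpinf2 move the same way in all 3 mice, while the line of mouse 512 runs against the other 2 in Plaur and F3.

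Plat encodes tissue-type plasminogen activator, the activator that works best on fibrin. Its brightest probe had levels of 6.05, 6.96 and 4.95 in ligated kidneys, against 1.97, 1.46 and 2.88 in contralateral kidneys. Every ligated kidney lay above every contralateral one, and the gap was smallest in mouse 512. The log2 change was 1.55 ± 0.33 (SE, n = 3 mice, limma adjusted p = 0.0389), a 2.94-fold higher level. The within-mouse differences were 1.62, 2.25 and 0.78. The second probe, 501 bases away, gave 1.66 ± 0.33 (limma adjusted p = 0.036). The third probe, A_52_P405772, was dim and not well above background on 1 contralateral array, and its log2 change was 1.26 ± 0.28 (SE, limma adjusted p = 0.041). The array design assigns that probe to a different transcript record from the other Plat probes, so it may not measure the same transcript. The call for Plat was lost when no filter was set on dim probes (adjusted p = 0.058).

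Plau encodes urokinase, the activator that binds the receptor Plaur. Its brightest probe had levels of 4.10, 4.81 and 5.49 in ligated kidneys, against 3.22, 4.76 and 7.41 in contralateral kidneys. The groups overlapped, and the lowest and the highest value were both in contralateral kidneys. The log2 change was -0.02 ± 0.21 (SE, n = 3 mice, limma adjusted p = 0.936), with a 95% interval from -0.60 to 0.55. The within-mouse differences were 0.35, 0.01 and -0.43. A second probe gave 0.07 ± 0.24 (limma adjusted p = 0.822). In both groups the level was lowest in mouse 495 and highest in mouse 512 on the brightest probe.

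Plaur encodes the urokinase receptor, a lipid-anchored surface protein that gathers urokinase on the cell. Its brighter probe had levels of 2.10, 3.10 and 2.08 in ligated kidneys, against 0.266, 0.441 and 3.52 in contralateral kidneys. Mice 495 and 485 had higher levels in the ligated kidney, by 2.98 and 2.82 on the log2 scale, and mouse 512 had the reverse, with a difference of -0.76. Over the 3 mice the log2 change was 1.68 ± 0.87 (SE, n = 3 mice, limma adjusted p = 0.191), with a 95% interval from -0.72 to 4.08. The second probe, 1194 bases away, showed the same split, with within-mouse differences of 2.30, 2.45 and -0.62. Without mouse 512 the log2 change of Plaur was 2.90 (limma adjusted p = 0.0035). In that fit of 2 pairs, with 1 residual degree of freedom, 55.0% of genes were called. An unpaired fit without only the contralateral kidney of mouse 512, chosen after seeing the data, gave 2.80 (limma adjusted p = 0.0016). That fit called 5154 of 19788 genes higher and 6031 lower.

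Plg encodes plasminogen, whose main source is the liver. Its 2 probes lie 18 bases apart and were dim, though well above background in at least 1 group. The brighter had levels of 0.074, 0.037 and 0.021 in ligated kidneys, against 0.071, 0.167 and 0.016 in contralateral kidneys. Mouse 485 had a lower level in the ligated kidney, by a log2 difference of -2.17 on this probe and -2.05 on the other, and both kidneys of mouse 512 had the lowest level of their group. The log2 change was -0.60 ± 0.57 (SE, n = 3 mice, limma adjusted p = 0.435), with a 95% interval from -2.18 to 0.98. Of the hepatocyte markers, Apoa1 was well above background on no array, and Alb was on 1 ligated and all 3 contralateral arrays.

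Serpine2 encodes protease nexin, a serpin of the cell surface and matrix that inhibits thrombin, urokinase and tissue-type activator. It had levels of 1.75, 2.03 and 3.78 in ligated kidneys, against 0.512, 0.380 and 0.535 in contralateral kidneys. The groups were far apart, and the ligated kidney of mouse 512 was the highest of all. The log2 change was 2.34 ± 0.25 (SE, n = 3 mice, limma adjusted p = 0.0228), a 5.05-fold higher level, with within-mouse differences of 1.77, 2.42 and 2.82. Its change lay at percentile 95.3 of all genes. The summed level of the 5 fibroblast and myofibroblast markers was 126.2, 57.1 and 82.9 in ligated kidneys, against 14.0, 9.19 and 36.9 in contralateral kidneys, and 4 of these markers were called higher. Col1a1 (59.9, 20.6 and 32.3) and Col3a1 (46.8, 19.0 and 29.6) made up most of the ligated sums. Acta2, the marker not called, had a log2 change of 0.30 ± 0.15 (SE, limma adjusted p = 0.174). The part of fibroblasts and myofibroblasts in the change of Serpine2 was not tested.

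Serpinf2 encodes antiplasmin, the chief circulating inhibitor of plasmin. It had levels of 4.84, 11.2 and 4.79 in ligated kidneys, against 35.9, 66.2 and 17.5 in contralateral kidneys. Every ligated kidney lay below every contralateral one, and mouse 485 had the highest value in each group. The log2 change was -2.44 ± 0.25 (SE, n = 3 mice, limma adjusted p = 0.0221), a 5.43-fold lower level, with within-mouse differences of -2.89, -2.57 and -1.87. Its change lay at percentile 0.918 of all genes. The proximal tubule sums given above were lower in the ligated kidney of every mouse, with 3 of the 5 markers called lower, and 4 of the 5 collecting duct markers were called lower too. The part of tubular cells in the change of Serpinf2 was not tested.

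Serpinb2 encodes an activator inhibitor known from stimulated macrophages and keratinocytes. Neither of its 2 probes was well above background on any of the 6 arrays, with signals between 2.6 and 5.1 intensity units, so no fold is given. The probes share 20 identical bases, and together they are therefore not fully separate measurements.

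F3 encodes tissue factor, the receptor that starts coagulation. Its brighter probe had levels of 2.75, 3.96 and 3.35 in ligated kidneys, against 1.63, 1.89 and 5.97 in contralateral kidneys. As with Plaur, mice 495 and 485 were higher in the ligated kidney, by 0.76 and 1.07 on the log2 scale, and mouse 512 was lower, with a difference of -0.83. The log2 change was 0.33 ± 0.43 (SE, n = 3 mice, limma adjusted p = 0.564), with a 95% interval from -0.87 to 1.53. The overlapping second probe gave within-mouse differences of 0.71, 1.02 and -0.92. Without mouse 512, in the fit that called 55.0% of genes, the log2 change of F3 was 0.91 (limma adjusted p = 0.0176). The unpaired fit without only its contralateral kidney, chosen after seeing the data, gave 0.92 (limma adjusted p = 0.013). That fit called 5154 genes higher and 6031 lower, of 19788. Both fits left out the values that ran against the other 2 mice.

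**Figure D2:**
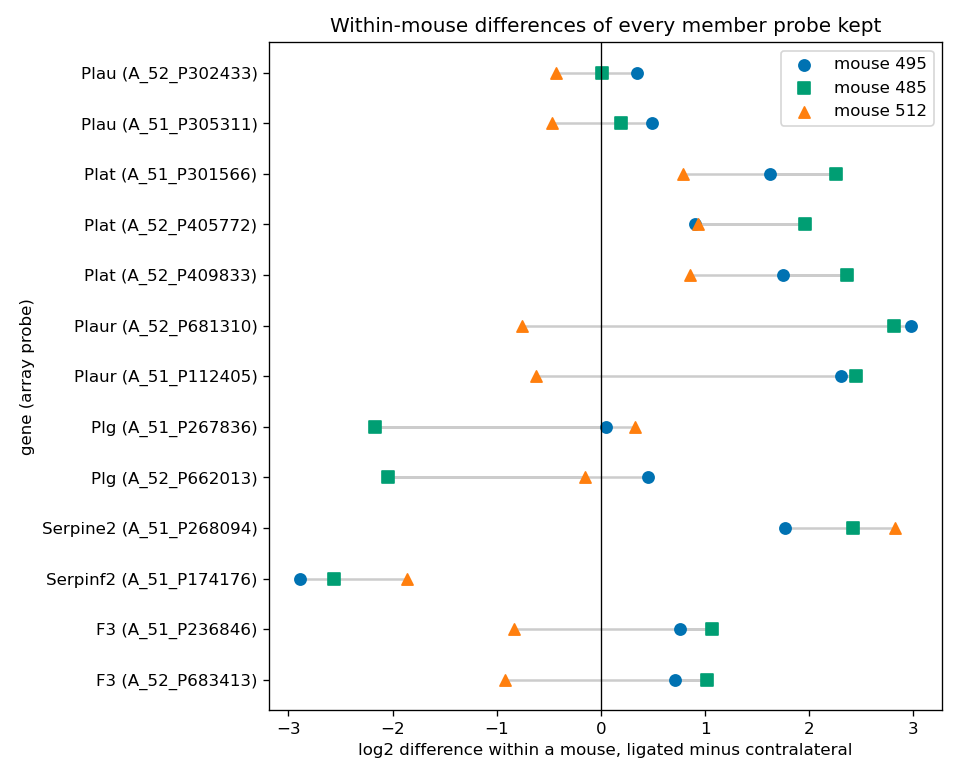
Log2 difference between the ligated and the contralateral kidney of each mouse for the 13 probes of the members that were kept, 1 point per mouse. Mouse 512 lies below 0 for both probes of Plaur, F3 and Plau, and the 2 Plg probes have opposite signs in that mouse (0.33 and -0.15).

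The same turn in mouse 512 was present in the fibrinogen chains, the precursor of the fibrin that plasmin cuts. The turn was not particular to these genes and Plaur and F3. The macrophage marker Cd14 had within-mouse differences of 3.28, 3.85 and -0.73, and the inhibitor A2m had 2.94, 1.68 and -2.47. Of all genes tested, 72.2% moved the same way in all 3 mice. Fgg, the gamma chain, had levels of 3.41, 2.32 and 2.48 in ligated kidneys, against 0.769, 0.465 and 19.98 in contralateral kidneys. Fga, the alpha chain, had levels of 0.374, 0.538 and 0.279 in ligated kidneys, against 0.268, 0.260 and 2.18 in contralateral kidneys. Fgb, the beta chain, had levels of 0.762, 0.545 and 0.116 in ligated kidneys, against 0.0119, 0.00502 and 2.13 in contralateral kidneys, and it was not well above background in the contralateral kidneys of mice 495 and 485. For all 3 chains the contralateral kidney of mouse 512 was the highest of the 6 arrays, and none was called (limma adjusted p = 0.685 for Fga, 0.396 for Fgb and 0.768 for Fgg). Alb, the only hepatocyte marker that could be tested, had levels of 0.0035, 0.0064 and 0.0179 in ligated kidneys, against 0.265, 0.181 and 0.0160 in contralateral kidneys. The source of the fibrinogen transcripts was not tested. The fibrinogen chains were named after their values were seen.

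**Figure D3:**
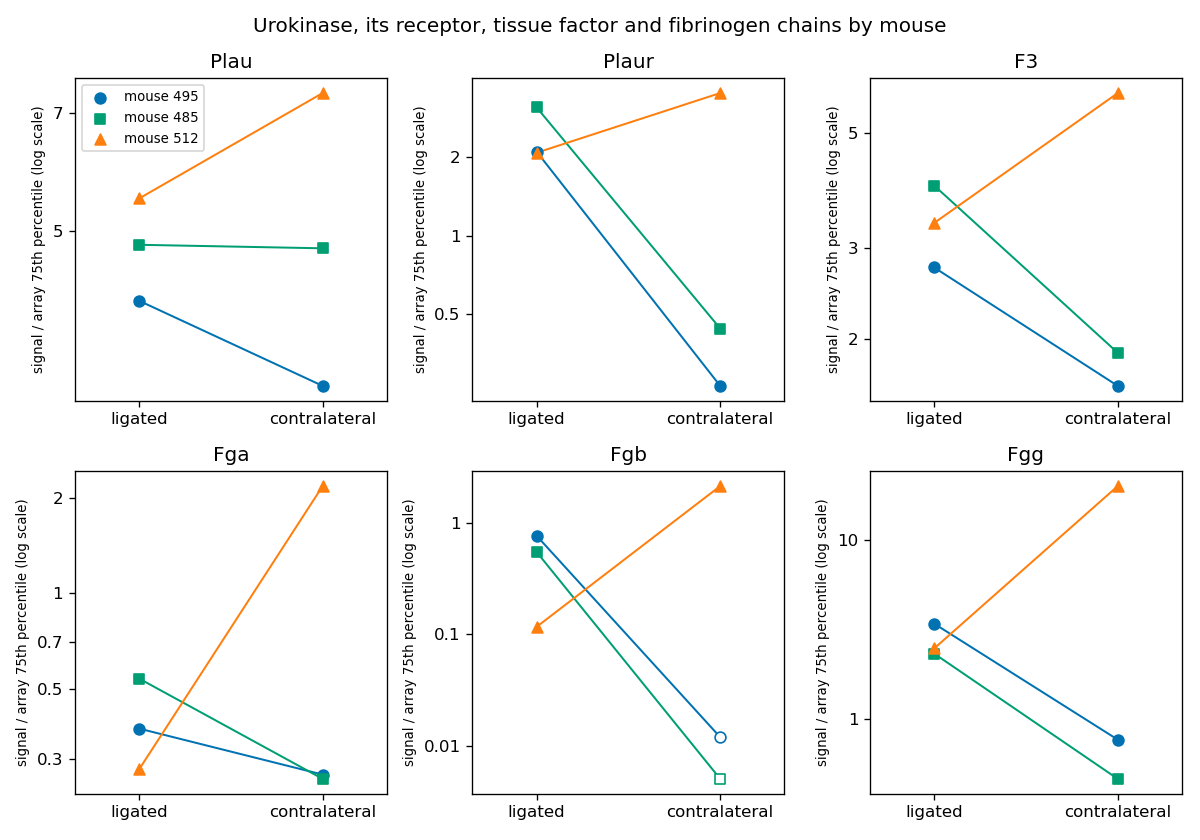
Scaled signal (log axis) of Plau, Plaur, F3 and the fibrinogen chains, with ligated kidneys on the left and contralateral kidneys on the right; open symbols are not well above background. The contralateral kidney of mouse 512 holds the highest value of every panel.

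The promoters of Plaur and F3 are shown, with matches to the AP-1 motif TGANTCA in capitals. These genes were picked after their split by mouse was seen, and AP-1 was the only motif searched. Any part of the motif in that split was not tested. The motif reads the same on both strands, and N is any base. The windows are the 300 bases around the start of each gene (RefSeq, build GRCm38.p6), most of which lie before the start, and promoters of 5 member genes were matched: those of Plaur, F3, Serpinb2, Serpine2 and Serpinf2. Of all 32851 promoters of this length, 7.81% hold the motif. The F3 window, chr3:121723287-121723586 on the plus strand, holds TGAATCA 146 bases and TGAGTCA 135 bases before the start. The Plaur window, chr7:24462233-24462532 on the plus strand, holds TGACTCA 69 bases before the start. The Serpinb2 windows hold TGAATCA, and those of Serpine2 and Serpinf2 hold no match. A match is a description of the letters only.
F3 promoter: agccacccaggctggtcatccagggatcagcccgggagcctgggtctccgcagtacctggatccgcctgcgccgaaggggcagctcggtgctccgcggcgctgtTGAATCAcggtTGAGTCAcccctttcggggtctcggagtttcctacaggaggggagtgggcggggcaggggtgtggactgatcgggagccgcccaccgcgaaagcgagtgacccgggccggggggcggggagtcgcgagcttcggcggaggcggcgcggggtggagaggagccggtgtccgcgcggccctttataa
Plaur promoter: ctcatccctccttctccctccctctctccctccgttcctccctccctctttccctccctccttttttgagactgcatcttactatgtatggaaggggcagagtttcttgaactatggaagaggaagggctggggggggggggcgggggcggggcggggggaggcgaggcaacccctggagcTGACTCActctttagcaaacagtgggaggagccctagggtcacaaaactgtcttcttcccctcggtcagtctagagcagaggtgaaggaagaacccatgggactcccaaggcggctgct

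Around the members, 3 pathway lists held 36 further genes. Of 9 genes for receptors and surface binding, all were tested, 4 were called higher and 2 lower, and the median log2 change was 2.23. Of 11 other inhibitors and regulators, 10 were tested, 3 were called higher and 1 lower, with a median of 0.77. Of 16 genes of the tissue factor pathway and fibrin, 13 were tested, 7 were called higher and 1 lower, with a median of 1.70. The genes called higher include F7 and F2rl3, well above background on 0 contralateral arrays, and Serpind1, on 1, which entered the test through the ligated kidneys alone. With only probes well above background on all 6 arrays, 11 and not 14 genes of the lists were called higher. All genes together had a median of -0.01, with 16.0% called higher and 14.7% lower. Of the 5 macrophage markers, whose sums are given above, 4 were called higher. The summed level of the 5 platelet and megakaryocyte markers was 5.96, 3.70 and 3.26 in ligated kidneys, against 0.869, 0.747 and 1.47 in contralateral kidneys, with 1 marker, Pf4, called higher. Pf4 made up most of that sum, with 5.51, 3.45 and 3.00 in ligated kidneys, against 0.457, 0.267 and 1.26 in contralateral kidneys, while Itga2b and Gp1bb had log2 changes of -1.09 and -0.88 and were not called. The neutrophil sum was 10.8, 8.23 and 1.62 in ligated kidneys, against 1.44, 2.09 and 1.03 in contralateral kidneys, with 1 of 3 tested markers, S100a8, called higher. S100a9 made up most of that sum, with 8.51, 7.06 and 1.32 in ligated kidneys, against 1.18, 1.74 and 0.843 in contralateral kidneys. It was not called (limma adjusted p = 0.0527). The part of these cells in the counts was not tested.

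Among the receptors, Itgam, which with Itgb2 forms a leukocyte integrin that binds fibrinogen, had levels of 0.511, 0.529 and 0.715 in ligated kidneys, against 0.0253, 0.0389 and 0.292 in contralateral kidneys. Its log2 change was 3.13 ± 0.67 (SE, limma adjusted p = 0.0397). Itgb2 rose by 2.41 ± 0.24 on the log2 scale, and Mrc2, an endocytic collagen receptor that associates with the urokinase receptor, rose by 2.40 ± 0.34. Lrp1, which clears complexes of activators with their inhibitors and was named after its values were seen, rose 4.69-fold. A dimmer Lrp1 probe had a log2 change of 1.91 ± 0.49 (SE, limma adjusted p = 0.0517). The receptors that fell were Eno1, a glycolytic enzyme that also binds plasminogen at the surface (-0.96 ± 0.14), and Vldlr, a lipoprotein receptor that takes up serpin complexes (-1.24 ± 0.18). Anxa2, the annexin that binds plasminogen and its tissue-type activator, was named after its values were seen; it had a log2 change of 2.43 ± 0.66 and was not called (limma adjusted p = 0.0574). Its within-mouse differences were 3.17, 3.52 and 0.62.

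Among the inhibitors, Serping1, the inhibitor of the first complement component, had levels of 10.1, 11.2 and 11.8 in ligated kidneys, against 2.00, 1.00 and 1.83 in contralateral kidneys. This was a 7.16-fold higher level (limma adjusted p = 0.0221). Serpind1, heparin cofactor, had levels of 0.0431, 0.0712 and 0.105 in ligated kidneys, against 0.0159, 0.0067 and 0.0224 in contralateral kidneys. It was well above background on 1 contralateral array and so entered the test through the ligated kidneys alone. Pzp, a broad protease inhibitor of the macroglobulin family, was the one called lower. Its levels were 0.341, 1.58 and 0.403 in ligated kidneys, against 8.51, 14.3 and 1.22 in contralateral kidneys. Hrg, Cpb2 and Serpinc1 also had negative log2 changes (-2.70, -0.82 and -0.55) and were not called.

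In the tissue factor pathway, F10, the factor that activates prothrombin, had levels of 0.400, 0.780 and 0.778 in ligated kidneys, against 0.0284, 0.0365 and 0.0891 in contralateral kidneys. This was a 13.8-fold higher level (limma adjusted p = 0.0221). F13a1, the transglutaminase subunit that cross-links fibrin, rose 11.2-fold. F7, the ligand of tissue factor, had levels of 0.0434, 0.132 and 0.104 in ligated kidneys, against 0.02025, 0.0167 and 0.0060 in contralateral kidneys. It was well above background on 0 of 3 contralateral arrays, so no fold is given. F7 thus entered the test through the ligated kidneys alone. Tfpi2, a matrix-bound Kunitz inhibitor, was the one called lower, with levels of 0.0729, 0.131 and 0.0885 in ligated kidneys, against 0.327, 0.513 and 0.188 in contralateral kidneys. Tfpi, the inhibitor of tissue factor, was named after its values were seen and had a log2 change of 1.33 ± 0.18 (SE, limma adjusted p = 0.0257). Dimmer Tfpi probes gave 1.62 ± 0.41 (limma adjusted p = 0.0511) and 0.87 ± 0.22 (limma adjusted p = 0.0494). The remaining Tfpi probes were not well above background on any array.

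**Figure D4:**
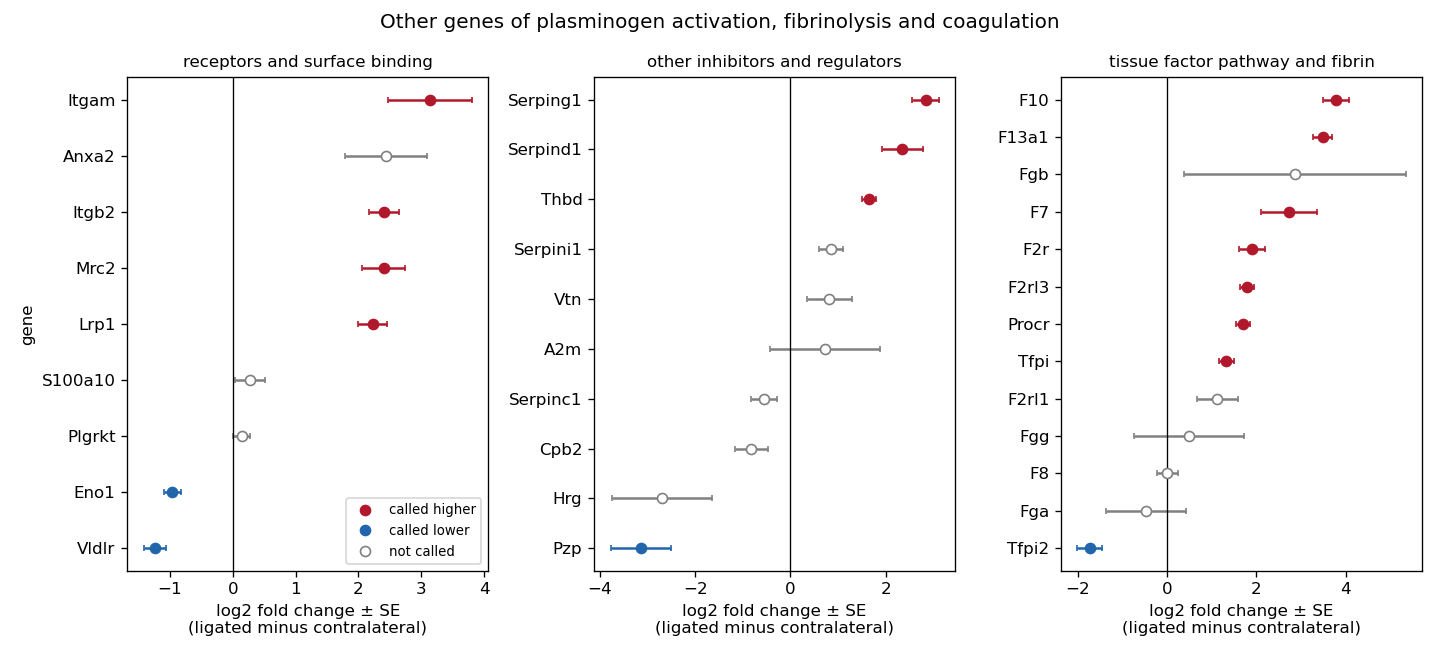
Log2 change (ligated minus contralateral, error bars are the standard error) of each tested gene of the 3 pathway lists, with filled red points called higher, filled blue points called lower and open points not called. The called genes lie mostly to the right of 0, with 14 higher and 4 lower. Over all genes tested, 16.0% were called higher and 14.7% lower. F7, F2rl3 and Serpind1 passed the filter through the ligated kidneys alone.

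The genes most like Plat over the 6 arrays were Aplp1, Arhgef26, Ep300, an unnamed transcript and Heyl, with Pearson's r from 0.996 to 0.9995. Such likeness was common for Plat, since 13.6% of the other genes had an r above 0.9. For Plau they were Zfp825, E430022E14Rik, Nepro, Ctps and Tuba1b, with r from 0.974 to 0.998, and 0.373% of the other genes had an r above 0.9. The 6 arrays are 3 pairs from the same mice and share the split between ligated and contralateral kidneys, so these values are descriptions.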

How the data were processed

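Total RNA labelled with Cy3 was hybridised to 1-colour Agilent arrays, 1 per kidney. The deposited scanner files hold background-corrected intensity per spot, and quality flags of 0 or 1 that are an other kind of value, made with Feature Extraction 10.5.1.1, per the file headers; the submitters' processing notes name version 9.1. The deposited value table holds the ratio of each processed signal to a constant of its array, and the median of each column is 1.

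Here log2 of the processed signal minus the 75th percentile of each array was fitted with limma 3.58.1 in R 4.3.3, with the mouse as a block. Control spots and outlier flags were left out. A probe was kept where ligated or contralateral arrays, all 3 of them, had it well above background, which left 29093 probes, and the brightest probe stood for a gene. Symbols came from RefSeq by accession for 24375 probes, and 16799 kept the name in the file. The mouse numbers pair the kidneys because both come from the same animal; the correlations of deviations within mice 495, 485 and 512 were 0.194, 0.481 and 0.271. The fit was tested on simulated data. The members and lists were chosen with earlier results of these data known, and 1 gene of the lists is not reported here. The text names every member, the 3 called genes of each list with the largest change, and those called in the direction opposite to the rest of their list; for Plat and Plau, the 5 genes with the highest correlation. Lrp1, Anxa2, Tfpi, F2rl3, Cpb2, Hrg, Serpinc1, A2m, the fibrinogen chains and single cell type markers were named outside that rule, after their values were seen. Alternatives were the background correction, the scaling, the filter, the block, the choice of probe and leaving out a mouse. The number of arrays limits the precision.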

Additional observations from a re-analysis of the deposited data

How the results depend on the processing

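When a mouse or kidney was left out, the members called higher were between 0 and 4, and those called lower between 0 and 1. The pathway genes called higher were between 0 and 21, and lower between 0 and 6. The upper ends were those of the fit without mouse 512, in which 55.0% of all genes were called, 5415 higher and 5707 lower. Without mouse 495 or 485, 0 genes were called in all (4979 and 5019 at an unadjusted p under 0.05), so Serpine2, Serpinf2 and Plat lost their calls. With probes above background on all 6 arrays, 11 pathway genes were called higher, against 14. With no filter on dim probes, 1 member was called higher. The fit with no replicate block, which ignores that kidneys are paired, called the same number of members, 2 higher and 1 lower, with an adjusted p of 0.0245 for Plat. The direction of Plau turned under normexp (0.0012), quantile normalization (0.26), spike-in centring (0.30) and the mean of probes (0.025), and lay between -0.21 and 0.28 when a mouse or kidney was left out. In the same way Plg lay between -1.51 and 0.19, and F3 between -0.037 and 0.92; the cause was not tested. Over all genes, 3135 were called higher and 2884 lower, against 2561 and 5938 with median centring, 2424 and 650 with spike-in centring, 1992 and 2787 with normexp, and 1760 and 902 with no filter. The median of all genes was then -0.32, 0.31, -0.18 and -0.23 on the log2 scale.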

Other observations

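Cpb2, the carboxypeptidase that protects fibrin from plasmin, differed more between mice than between the kidneys of a mouse. Its levels in mice 495, 485 and 512 were 0.367, 3.97 and 1.64 in ligated kidneys, against 0.347, 11.2 and 3.34 in contralateral kidneys. Mouse 495 was the lowest and mouse 485 the highest in both groups, and Cpb2 was not called (limma adjusted p = 0.141). Hrg, a plasma glycoprotein that binds plasminogen, had levels of 0.0192, 0.0505 and 0.0475 in ligated kidneys, against 0.382, 0.839 and 0.0396 in contralateral kidneys. The contralateral kidney of mouse 512 lay within the range of the ligated kidneys for Hrg, and the gene was not called (limma adjusted p = 0.114).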
